A study of Mus musculus with 18 samples.

Results

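Annotated non-coding RNA genes were followed in rela-/- fibroblasts reconstituted with wild-type or mutant RelA over a TNFα time course. The members were the genes of the study's merged annotation whose every RefSeq record carries the prefix for non-coding RNA. Of 23212 genes in that annotation 2783 met this rule, and 426 of them were above 0 FPKM (fragments scaled by transcript length and by the library's mapped fragments) in at least 2 of the 18 libraries, beside 12268 such genes in all. Current RefSeq lists 328 of the 426 as long non-coding RNAs, 60 as transcribed pseudogenes, 24 as protein-coding genes, 4 as antisense RNAs, 2 as other pseudogenes, 2 as microRNAs and 1 as a small nucleolar RNA, while 5 had no match. The label therefore holds as the annotation stood when the study was made and no longer holds for the 24.

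Non-coding RNA genes make transcripts that act as RNA or serve as precursors. Long non-coding RNAs are usually capped, spliced and polyadenylated like messenger RNAs, and some, such as Xist, Malat1 and Neat1, stay in the nucleus, where they coat chromatin or build nuclear bodies. Host genes carry microRNAs or small nucleolar RNAs that are cut out of their exons or introns. In fibroblasts, TNFα activates NF-κB, whose RelA subunit binds the coactivators CBP and p300.

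All cells were immortalized mouse embryonic fibroblasts that lacked the rela gene and received mouse RelA from the retroviral vector pBABE-puro, so each group differed in the RelA it carried. RelA(wt) is the wild-type protein, RelA(TA2) is mutated in the transactivation region that contacts the TAZ1 domain of CBP/p300, and RelA(Ser276Ala), labelled RelA(S276A), lacks the serine whose phosphorylation serves the contact with the KIX domain. Each line was sampled unstimulated (0 h) and after 1 h and 2 h of 5 ng/ml TNFα, with 2 libraries in each of the 9 conditions. Each form of RelA was studied in 1 line, so a difference between forms cannot be told apart from another difference between the lines. A gene is listed at 0 where no assembled transcript had at least 50% of its bases in the gene's exons, which can hold although a longer transcript covers the gene. The paper names poly-dT primers for the cDNA measured by qPCR, and for sequencing it names mRNA without a primer. Oligo-dT priming or capture favours polyadenylated RNA. In bulk RNA, fewer cells with a transcript and less transcript per cell cannot be told apart.

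Mapped fragments ran from 25.3 M to 31.3 M per library, and each assembly held 23263 to 25727 transcripts. All 9 fibroblast markers were above 0 in every library. Of 6 leukocyte markers 4 were at 0 in every library, among them Ptprc, Emr1 and Cd3e, as were Pecam1 and Tek of 4 endothelial and Epcam, Cdh1 and Krt18 of 4 epithelial markers. Above 0 in every library were Cd68 (4.23 to 16.9 FPKM), Csf1r (2.38 to 16.1), Cdh5 (1.12 to 12.3) and Krt8 (1.85 to 26.0), and their part in the results was not tested. Rela itself stood at 156 to 187 FPKM in RelA(wt), 315 to 366 in RelA(TA2) and 174 to 211 in RelA(Ser276Ala) libraries. These values are RNA and do not give the amount of protein. The paper reports that the Ser276Ala mutant protein was clearly less abundant than wild-type RelA, a shortfall that the RNA values did not show. Whether this shortfall contributed to differences of the RelA(Ser276Ala) line was not tested.

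Of the 426 members, 20 contain 43 microRNA genes on their own strand. Mature microRNAs of 3 hosts with called differences are shown here, from RefSeq on GRCm38.p6, with the seed (bases 2 to 8) in capitals. Dnm3os hosts miR-199a-2 and miR-214, E130102H24Rik hosts miR-101a, and C430049B03Rik hosts miR-503, miR-322 and miR-351. The mature microRNAs of Dleu2 and 2610203C20Rik (Mir100hg), also members, are set beside those of C430049B03Rik because they have the same seeds. The microRNAs of Rian and H19, hosts that were also called, are not shown.
miR-199a-5p (chr1:162217844-162217866, + strand): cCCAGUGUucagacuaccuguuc
miR-199a-3p (chr1:162217883-162217904, + strand): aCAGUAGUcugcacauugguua
miR-214-3p (chr1:162223438-162223459, + strand): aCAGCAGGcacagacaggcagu
miR-101a-3p (chr4:101346957-101346977, - strand): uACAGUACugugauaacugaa
miR-503-5p (chrX:53054027-53054049, - strand): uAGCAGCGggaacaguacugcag
miR-322-5p (chrX:53054306-53054327, - strand): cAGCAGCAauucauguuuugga
miR-16-5p (chr14:61631936-61631957, - strand): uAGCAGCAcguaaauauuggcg
miR-15a-5p (chr14:61632075-61632096, - strand): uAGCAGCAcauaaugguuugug
miR-351-5p (chrX:53053315-53053338, - strand): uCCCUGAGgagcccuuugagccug
miR-125b-5p (chr9:41581940-41581961, + strand): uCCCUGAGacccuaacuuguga
The seed AGCAGCA was shared by miR-322-5p, miR-16-5p and miR-15a-5p, and the seed CCCUGAG by miR-351-5p and miR-125b-5p. The libraries measured the host transcripts and not the mature microRNAs.

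Of the 23 members called in any comparison of TNFα-treated with unstimulated cells, 16 had a promoter window in the RefSeq table (GRCm38.p6, 250 bases before to 50 after the start site). On both strands, 1 of these windows, that of Gm8773, held a match to the 10-base NF-κB (κB) consensus, 80 bases before the start. Another, that of Gm16907, held a match to the AP-1 site TGANTCA, 119 bases before the start. Among all 32851 promoter windows of the same length, 4.51% held a κB match and 7.81% an AP-1 match. These windows are shown with the matches in capitals, together with that of Dnm3os, which rose at 1 h and whose window matched neither motif. The RefSeq start of Gm8773 lies 205 bases downstream of the start in the merged annotation. Its κB match therefore lies downstream of the merged annotation's start, within the span of the gene as measured here.
Gm8773 promoter (chr5:5573754-5574053, + strand): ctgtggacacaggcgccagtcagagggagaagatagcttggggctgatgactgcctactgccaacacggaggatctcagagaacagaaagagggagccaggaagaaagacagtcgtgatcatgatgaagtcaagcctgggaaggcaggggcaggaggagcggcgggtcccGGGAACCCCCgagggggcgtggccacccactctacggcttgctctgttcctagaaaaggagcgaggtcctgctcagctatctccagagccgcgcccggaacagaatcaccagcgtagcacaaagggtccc
Gm16907 promoter (chr13:63297098-63297397, - strand): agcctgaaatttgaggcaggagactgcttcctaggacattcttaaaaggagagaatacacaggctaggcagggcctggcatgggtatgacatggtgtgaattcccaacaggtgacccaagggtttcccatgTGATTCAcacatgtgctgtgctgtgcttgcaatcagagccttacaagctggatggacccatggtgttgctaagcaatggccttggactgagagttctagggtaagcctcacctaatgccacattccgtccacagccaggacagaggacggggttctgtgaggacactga
Dnm3os promoter (chr1:162217373-162217672, + strand): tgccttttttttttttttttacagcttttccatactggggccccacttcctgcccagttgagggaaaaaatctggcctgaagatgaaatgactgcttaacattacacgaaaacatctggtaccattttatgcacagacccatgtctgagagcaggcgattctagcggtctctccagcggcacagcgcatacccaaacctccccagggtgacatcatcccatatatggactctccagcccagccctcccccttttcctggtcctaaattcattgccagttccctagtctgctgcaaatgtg
A match describes letters and not a bound site.

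The members were expressed at low levels. Their median FPKM over the libraries was 3.64, beside 12.7 for the other genes tested, and 58.7% of them were at 0 in at least 1 library, beside 14.9% of the others. Single-exon genes made up 22.1% of the members and 1.72% of the others. Of the members, 89 began within 1000 bases of a coding gene on the opposite strand and were transcribed away from it, and 115 shared exonic bases with a coding gene. The spread between the 2 libraries of a condition was a median SD of 0.889 on the log2 scale for members and 0.315 for all genes tested, so smaller changes could be called for fewer members. Counting the fragments behind each value, as recovered from the FPKM and its confidence limit, gave SDs of 0.432 and 0.107.

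The highest FPKM values came from very short transcripts. Gm5779 stood highest at a mean of 34201 FPKM with 24.7 FPM (recovered fragments scaled to 1000000 fragments in genes), followed by Gm6402 (5984 FPKM, 1.31 FPM) and Kcnq1ot1 (3498 FPKM, 3.57 FPM), the antisense RNA of the imprinted Kcnq1 region. In all, 69 of the 426 members owed over 50% of their FPKM to assembled transcripts under 300 bases. They included Gas5, a host of small nucleolar RNAs, which ranged from 203 to 14325 FPKM with a mean of 132 FPM. By fragments the order was different and led by known long RNAs. Fragments are not scaled by length, so at equal FPKM a longer RNA stands higher on this measure. Xist had 1361 FPM, Rn45s, the ribosomal RNA precursor, 948, Rian, an imprinted host of small nucleolar RNAs and microRNAs, 891, Neat1, the scaffold of paraspeckles, 614, Malat1, a nuclear speckle RNA, 549.9, and 2900097C17Rik (Norad), which binds Pumilio proteins, 238.

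**Figure D1:**
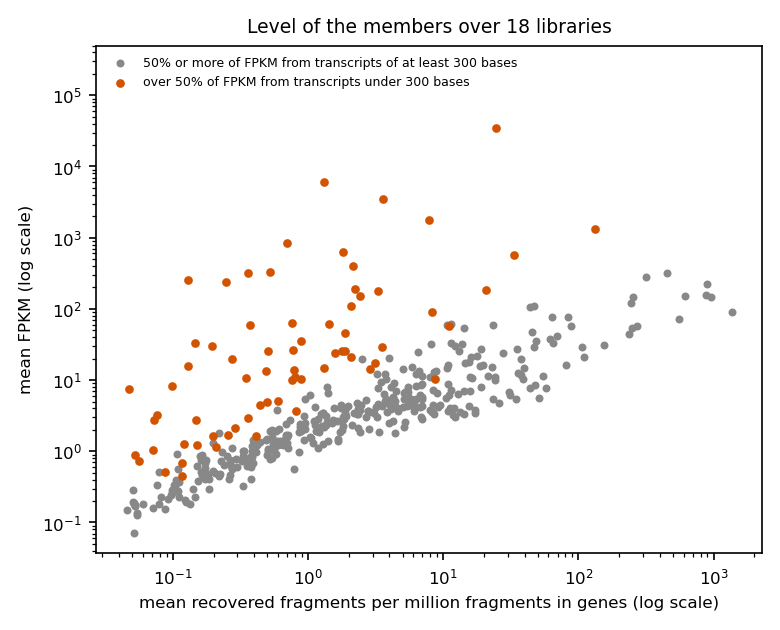
Mean FPKM (y axis, log scale) against mean FPM (x axis, log scale) for the 426 members over 18 libraries. Each point is a gene, and the 69 members with over 50% of their FPKM from transcripts under 300 bases (orange) lie above the rest at the same number of fragments, up to Gm5779 at 34201 FPKM.

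The first comparison asked which members changed with TNFα over the 3 lines. At 1 h, 9 of 421 members tested (2.14%) differed from 0 h with an adjusted p under 0.05 (limma, Benjamini-Hochberg over all 12211 genes tested), beside 3.9% of all genes, and 3 of them were higher (1.78% of all genes) and 6 lower (2.12%). At 2 h, 14 members (3.33%) were called, beside 8.04% of all genes, 6 higher (3.51% of all genes) and 8 lower (4.54%). E130102H24Rik and A930024E05Rik, called at both times, passed the filter of 1 FPKM in 2 libraries only through the group where they were higher. Gm16907, called at 2 h, passed it through 1 library at 2 h and 1 elsewhere. The values of these members are given as a description. Both shares lay below the share over all genes. On recovered fragments, 39 members were called at 1 h and 63 at 2 h, beside 15.7% and 37.8% of all genes. Of the members called on FPKM, 8 of the 9 and 13 of the 14 were called on fragments in the same direction.

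Dnm3os, the precursor of miR-199a-2 and miR-214 on the strand opposite Dnm3 (chr1:162217623-162225550, + strand, 1 exon), rose at 1 h. In RelA(wt) cells the libraries stood at 3.02 and 3.29 FPKM at 0 h, 10.5 and 13.5 at 1 h, and 3.72 and 3.82 at 2 h. In RelA(TA2) cells they stood at 4.17 and 4.46 at 0 h, 5.46 and 8.80 at 1 h, and 6.67 and 3.12 at 2 h. In RelA(Ser276Ala) cells they stood at 3.20 and 3.37 at 0 h, 6.04 and 5.99 at 1 h, and 3.26 and 4.63 at 2 h. Every library at 1 h lay above every library at 0 h, and the 2 h libraries of RelA(wt) were back near the 0 h values. The rise over the 3 lines was 1.06 on the log2(FPKM + 0.5) scale (SE 0.18, adjusted p = 0.00549, limma) at 1 h. Within lines it was 1.77 in RelA(wt) (SE 0.30, adjusted p = 0.0148), 0.63 in RelA(TA2) (adjusted p = 0.435) and 0.78 in RelA(Ser276Ala) (adjusted p = 0.444). The test of a difference in response between lines did not pass (adjusted p = 0.773), so the larger value in RelA(wt) is not shown to differ. Dnm3os was called at 1 h over the lines in all 15 alternatives and without each of the 18 libraries. The call within RelA(wt) was lost without 0 h replicate 1 or 1 h replicate 2.

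1700020I14Rik, now named Oip5os1 and known as Cyrano, a conserved RNA that pairs with miR-7 and promotes its decay, fell at 1 h (chr2:119594296-119607604, + strand, 3 exons). In RelA(wt) cells it went from 7.66 and 7.41 FPKM at 0 h to 3.78 and 3.94 at 1 h, with 5.89 and 5.97 at 2 h. In RelA(TA2) cells the values were 8.45 and 6.88, then 4.11 and 4.39, then 5.76 and 5.45. In RelA(Ser276Ala) cells they were 6.34 and 6.31, then 3.11 and 3.68, then 4.95 and 5.69. The groups did not overlap, with 3.11 to 4.39 FPKM at 1 h, 4.95 to 5.97 at 2 h and 6.31 to 8.45 at 0 h. Over the lines the RNA fell by 0.82 at 1 h (SE 0.07, adjusted p = 7.04e-05, limma) and by 0.32 at 2 h (SE 0.07, adjusted p = 0.0249) on the log2 scale. At 1 h it was called in each line, falling by 0.88, 0.78 and 0.81 in RelA(wt), RelA(TA2) and RelA(Ser276Ala) cells. The 2 h call was lost without any 1 of 7 libraries, in contrast to the 1 h call. The mean was 50.9 FPM, and the nearest coding gene, Nusap1, did not pass the test (0.10, adjusted p = 0.922).

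Gm8773 (chr5:5573799-5576203, + strand), whose window holds the κB match and which RefSeq now lists as protein-coding, rose at both times. Its values in RelA(wt) cells were 4.56 and 3.91 FPKM at 0 h, 7.03 and 7.08 at 1 h and 7.17 and 6.87 at 2 h. In RelA(TA2) cells they were 3.96 and 3.42, then 6.49 and 6.28, then 7.54 and 6.58, and in RelA(Ser276Ala) cells 3.83 and 3.16, then 4.84 and 5.999, then 5.02 and 6.71. All stimulated libraries lay above all unstimulated ones. The rises were 0.65 at 1 h (SE 0.10, adjusted p = 0.00261) and 0.73 at 2 h (SE 0.10, adjusted p = 0.00112, limma), and both calls stood in all 15 alternatives and without each library. Within lines it was called only in RelA(TA2) at 2 h (0.85, adjusted p = 0.0208), and the difference between lines in its response was not called.

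E130102H24Rik, the host of miR-101a (chr4:101344926-101356248, - strand), was assembled only before TNFα. It stood at 1.27 and 1.36 FPKM in RelA(wt) and at 1.01 and 2.24 FPKM in RelA(Ser276Ala) cells at 0 h, and was listed at 0 in the other 14 libraries, all 6 of RelA(TA2) included. It passed the filter on low values only through these unstimulated libraries and had to differ there, so no test is given. The mean was 0.330 FPM, so these values rest on few fragments and no fold is given.

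**Figure D2:**
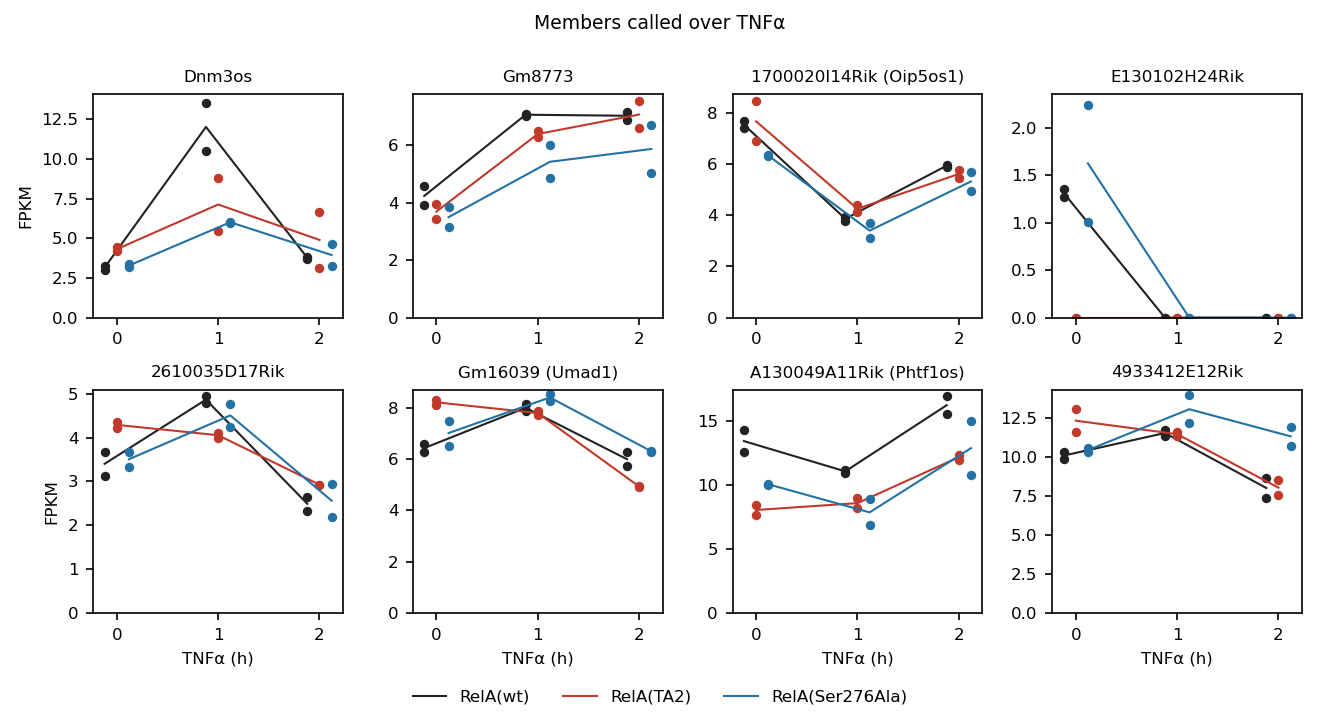
FPKM (y axis) by hours of TNFα (x axis) for 8 members called over TNFα. Points are the 2 libraries of each condition, lines join their means, and colours mark RelA(wt), RelA(TA2) and RelA(Ser276Ala). Dnm3os peaks at 1 h, Gm8773 stays raised, 1700020I14Rik is lowest at 1 h in all 3 lines, and E130102H24Rik is above 0 only at 0 h in RelA(wt) and RelA(Ser276Ala).

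Several less abundant RNAs were called at 2 h only. 2610035D17Rik stood at 3.13 to 4.36 FPKM (median 3.68) at 0 h and at 2.19 to 2.94 (median 2.79) at 2 h, without overlap, and fell by 0.42 (SE 0.09, adjusted p = 0.0147, limma). A130049A11Rik (Phtf1os), on the strand opposite Phtf1 with which it shares exonic bases, ranged from 7.68 to 14.2 FPKM (median 10.03) at 0 h and from 10.7 to 16.9 (median 13.7) at 2 h, and rose by 0.39 (SE 0.09, adjusted p = 0.0277) with overlapping groups. Of the coding genes with which it shares exonic bases, Phtf1 stood at -0.40 (adjusted p = 0.521) and Rsbn1 at 0.13 (adjusted p = 0.649). On fragments Phtf1 stood at -0.07 (adjusted p = 0.106) and Rsbn1 rose by 0.47 (adjusted p = 3.56e-04). Gm16039, now Umad1 and protein-coding, fell by 0.31 at 2 h (adjusted p = 0.00858). Within lines this fall was called in RelA(TA2) cells, from 8.30 and 8.12 FPKM at 0 h to 4.95 and 4.91 at 2 h (a fall by 0.68, adjusted p = 0.00448). 4933412E12Rik, which begins 182 bases from Rab3ip on the opposite strand, fell by 0.27 at 2 h (adjusted p = 0.0339), and within lines the fall was called in RelA(TA2) cells (by 0.59, adjusted p = 0.0207), where it went from 11.6 and 13.03 to 8.50 and 7.54 FPKM. Whether these 2 h changes differ between lines did not pass the test for either RNA.

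Other calls over the lines rested on low or uneven values. 4933436C20Rik (Crnde) went from 5.75 to 11.1 FPKM at 0 h to 3.15 to 5.18 at 1 h and fell by 0.79 (adjusted p = 0.0247, limma), but by 0.23 on fragments (adjusted p = 0.539). Its neighbour Irx5, a homeobox factor whose start lies 1676 bases away, fell by 0.59 (adjusted p = 0.0264). 2900056M20Rik (Kantr) rose at 2 h by 0.87 on FPKM (adjusted p = 0.0401) and fell on fragments by 0.97 (adjusted p = 6.03e-05), so its direction depended on the measure. Gm16907, with the AP-1 match, was listed at 0 in all 6 unstimulated libraries and stood at 0.646 to 1.18 FPKM in 5 of 6 at 2 h, and since it passed the filter only through stimulated libraries no test is given. 4933439C10Rik, which shares exonic bases with Zkscan17, rose at 2 h by 1.67 (adjusted p = 0.0216), from 0 to 2.94 FPKM at 0 h to 1.54 to 10.8 at 2 h. 1810021B22Rik, 210 bases from Trabd, was lower at 2 h (adjusted p = 0.0498) and was called in 7 of 15 alternatives. It stood at 0.799 to 7.05 FPKM at 0 h and was listed at 0 in 5 of 6 libraries at 2 h. Among these zeros, RelA(wt) replicate 2, both RelA(TA2) libraries and RelA(Ser276Ala) replicate 2 had a longer transcript over the gene. Those transcripts covered 59.5% to 76.9% of the gene at 0.683 to 2.08 FPKM, so the zeros do not show that the RNA was absent. Gm13363, a pseudogene that rose by 0.32 at 1 h (adjusted p = 0.0347) and 0.37 at 2 h (adjusted p = 0.0103), shares exons with Ptp4a1, a coding phosphatase gene whose change was 0.32 and 0.36, so the values cannot be told apart.

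Within single lines few members passed. In RelA(wt) cells 6 were called at 1 h, 1 higher (0.95% of all genes) and 5 lower (0.475%), beside 1.42% in all. At 2 h 3 were called, none higher (1.27%) and 3 lower (0.45%), beside 1.72%. In RelA(TA2) cells 5 were called at 1 h, 1 higher (1.04%) and 4 lower (0.721%), beside 1.76%, and 6 at 2 h, 2 higher (1.74%) and 4 lower (1.86%), beside 3.6%. In RelA(Ser276Ala) cells 5 were called at 1 h, none higher (0.909%) and 5 lower (0.5%), beside 1.41%, and 5 at 2 h, 1 higher (0.696%) and 4 lower (0.27%), beside 0.966%. The members' shares in these 6 comparisons ran from 0.713% to 1.43%. H19, an imprinted RNA that hosts miR-675, was called lower in RelA(wt) cells, from 13.6 and 7.09 FPKM at 0 h to 1.94 and 2.02 at 1 h and 2.30 and 2.28 at 2 h (adjusted p = 0.0186 and 0.0283, limma). On fragments its change was 0.0015 at 1 h and 0.23 at 2 h, so the FPKM fall was not seen there. 4833419F23Rik, which starts 594 bases from the kinase gene Map3k8 on the opposite strand, was listed at 0 in both RelA(TA2) libraries at 1 h, after 3.93 and 2.96 FPKM at 0 h and before 10.1 and 6.45 at 2 h (adjusted p = 0.0172). 3110045C21Rik, at 1.24 and 1.46 FPKM, and Gm15760, at 2.67 and 3.48 FPKM, were above 0 in RelA(Ser276Ala) cells at 0 h and listed at 0 in that line at both later times (adjusted p = 0.0326 at 1 h for Gm15760, limma). 3110045C21Rik was at 0 in all other libraries and passed the filter only through those 2, so no test is given for it. BC090627 rose in RelA(TA2) cells at 1 h by 0.95 (adjusted p = 0.0204), from 20.1 and 18.5 to 39.2 and 36.0 FPKM, while Chkb, whose exons it shares, rose by 1.32 (adjusted p = 0.00337). Gm1976 rose in RelA(TA2) cells at 2 h by 1.77 (adjusted p = 0.00549), from 1.43 and 1.10 to 5.08 and 5.97 FPKM, but by 0.50 on fragments (adjusted p = 0.34).

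A difference between lines in the response to TNFα was called for 2 members, Atp6v0c-ps2 and A930024E05Rik, beside 0.54% of all genes. Both turned on libraries listed at 0. Atp6v0c-ps2, a pseudogene on chromosome 17 that shares exons with Atp6v0c, stood at 281 to 347 FPKM in 16 libraries and at 0 in both RelA(wt) libraries at 1 h. There the assembly had joined its exons to Amdhd2 in transcripts of 2785 and 2751 bases, of which 40.1% and 40.6% lay in the gene, below the 50% needed for the values to be counted. When transcripts that cover at least 50% of the gene were counted too, its FPKM fell at 1 h over the lines by 0.48 (adjusted p = 1.70e-04, limma). That FPKM is scaled by the whole length of the joined transcripts, so a fall of the gene's own RNA is not shown. Atp6v0c-ps2 was not called when each transcript was given to 1 gene. 1500015A07Rik, 59 bases from Grpel2, was listed at 0 in RelA(wt) and RelA(TA2) cells after TNFα and at 1.57 to 4.25 FPKM at 0 h, and it was called lower over the lines at 1 h (adjusted p = 0.00145, limma) and 2 h (adjusted p = 0.00111). All 8 zeros had transcripts of 4205 to 8545 bases over the gene, and with them counted the change at 1 h was 0.07 (adjusted p = 0.944). A930024E05Rik, 262 bases from Kdm2b, was listed at 0 in all 6 RelA(wt) libraries, at 7.64 and 6.30 FPKM in RelA(TA2) and 4.65 and 2.05 FPKM in RelA(Ser276Ala) cells at 0 h, and at 0 after TNFα, and 60% of its FPKM came from transcripts under 300 bases. Over all members, 2150 of 7668 values (28%) were 0, and for 139 of these, in 41 members, a transcript covering at least 50% of the gene was present.

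**Figure D3:**
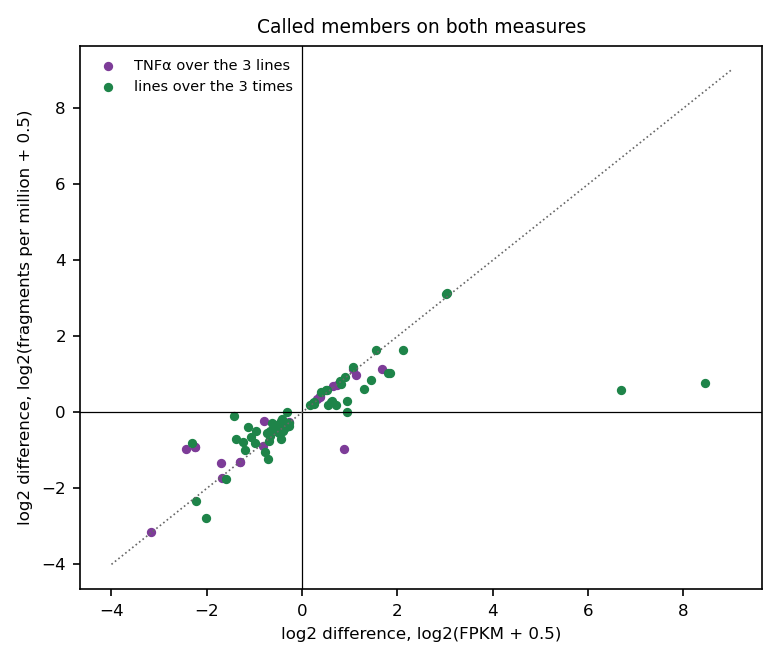
Log2 difference of each called member and comparison on FPM (y axis, + 0.5) against the difference on FPKM (x axis, + 0.5), for TNFα over the 3 lines (purple) and lines over the 3 times (green). The dotted line marks equal values. Most points lie near it, BC039771 lies far to the right (8.45 and 6.70 on FPKM), and 2900056M20Rik lies below 0 on fragments (-0.97) and above 0 on FPKM (0.87).

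The second comparison asked which members differed between lines over the 3 times, with the RelA(wt) libraries shared by the first and second contrasts and each mutant line by a pair of contrasts. In RelA(TA2) against RelA(wt), 19 members (4.51%) were called, beside 11.2% of all genes, 7 higher (5.44%) and 12 lower (5.74%). In RelA(Ser276Ala) against RelA(wt), 23 (5.46%) were called, beside 11.8%, 15 higher (6.85%) and 8 lower (4.96%). In RelA(TA2) against RelA(Ser276Ala), 21 (4.99%) were called, beside 11.9%, 5 higher (5.36%) and 16 lower (6.54%). On fragments 61, 75 and 74 members were called, beside 40.4%, 43.3% and 43.0% of all genes, and 16 of the 19, 19 of the 23 and 20 of the 21 were among them in the same direction. Of the called members 3110045C21Rik passed the filter only through RelA(Ser276Ala), in both contrasts with that line. The 6 libraries of each line did not overlap for 5, 7 and 7 of the called members. The matching share over all genes is not given, so these counts are only a description.

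C430049B03Rik, the host of miR-322, miR-503 and miR-351 (chrX:53053112-53057190, - strand, 4 exons), was lower in both mutant lines. The RelA(wt) libraries stood at 23.6 and 18.2 FPKM at 0 h, 24.7 and 19.1 at 1 h and 35.8 and 29.3 at 2 h. The RelA(TA2) libraries stood at 10.4 and 9.47, then 12.97 and 11.4, then 10.5 and 19.6, and the RelA(Ser276Ala) libraries at 23.0 and 15.2, then 12.9 and 11.8, then 17.5 and 20.3. All RelA(TA2) libraries but 1, at 19.6 FPKM, lay below the lowest RelA(wt) library. Over the times it was lower by 1.00 in RelA(TA2) (SE 0.16, adjusted p = 0.0028, limma), a call that stood without each library. In RelA(Ser276Ala) it was lower by 0.57 (SE 0.16, adjusted p = 0.0454), and the call stood without only 3 of the 18 libraries.

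Xist, the RNA that coats the inactive X chromosome (chrX:103460373-103483233, - strand), was lowest in RelA(Ser276Ala) cells. Its libraries there ranged from 34.4 to 83.1 FPKM (median 52.4), beside 77.9 to 151 (median 119) in RelA(wt) and 78.9 to 173 (median 84.5) in RelA(TA2) cells. The difference of RelA(Ser276Ala) from RelA(wt) was -1.07 (SE 0.21, adjusted p = 0.00857) and that of RelA(TA2) from RelA(Ser276Ala) was 0.82 (SE 0.21, adjusted p = 0.0307, limma), the latter lost without 7 of the 18 libraries. RelA(TA2) against RelA(wt) did not pass (-0.25, adjusted p = 0.529). 6720401G13Rik (Firre), an X-linked nuclear RNA of repeated exons, stood at 6.54 to 10.7 FPKM (median 8.38) in RelA(Ser276Ala) and at 9.67 to 20.4 (median 13.1) in RelA(wt) cells, and was lower by 0.68 (SE 0.15, adjusted p = 0.0137). On fragments both RNAs were also lower (by 0.65 and 0.50).

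Rian, from the imprinted Dlk1-Dio3 region, stood at 228 to 286 FPKM (median 267) in RelA(wt), 163 to 217 (median 202) in RelA(Ser276Ala) and 195 to 230 (median 207) in RelA(TA2) cells. It was lower by 0.42 in RelA(Ser276Ala) (SE 0.07, adjusted p = 0.00253, limma), without overlap, and by 0.31 in RelA(TA2) (SE 0.07, adjusted p = 0.0132). On fragments the RelA(Ser276Ala) difference was smaller, at -0.17 (adjusted p = 0.0363). The RelA(TA2) difference was 0.01 on fragments (adjusted p = 0.959), so it rested on the FPKM. Malat1 stood at 72.7 to 93.5 FPKM (median 85.2) in RelA(wt) and at 52.5 to 72.3 (median 66.9) in RelA(TA2) cells and was lower there by 0.39 (SE 0.09, adjusted p = 0.0186), a call lost without RelA(wt) 0 h replicate 1 or 2 h replicate 2. In RelA(Ser276Ala) cells the Malat1 difference was -0.30 (adjusted p = 0.0552). Pvt1, the neighbour of Myc, stood at 7.14 to 22.8 FPKM (median 12.9) in RelA(wt) and 5.53 to 7.38 (median 6.59) in RelA(TA2) cells and was lower by 0.97 (SE 0.21, adjusted p = 0.0144), and by 0.49 on fragments.

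**Figure D4:**
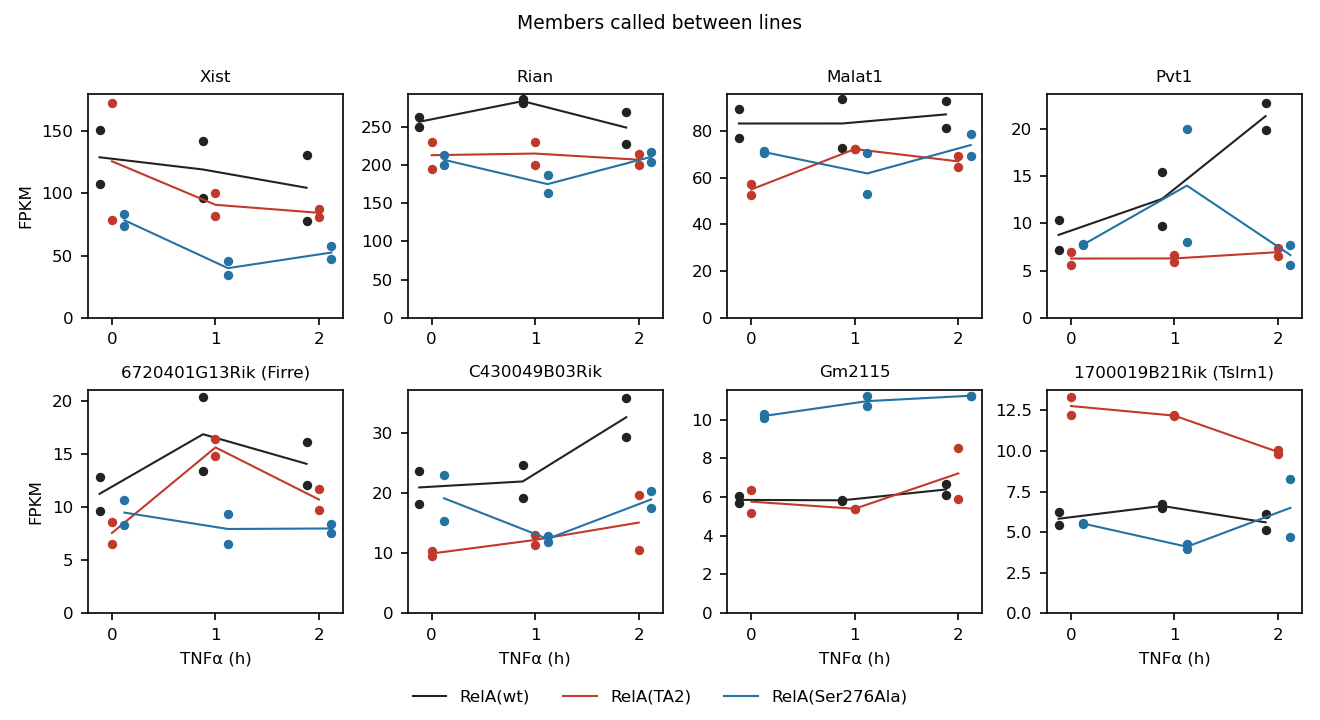
FPKM (y axis) by hours of TNFα (x axis) for 8 members called between lines. Points are the 2 libraries of each condition and lines join their means. RelA(Ser276Ala) (blue) is lowest for Xist and highest for Gm2115, RelA(TA2) (red) is highest for 1700019B21Rik, and RelA(wt) (black) is highest for Rian.

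Several members stood highest in a mutant line. Larger called differences from RelA(wt) than those given here included BC039771 in RelA(TA2) (8.45) and 1810058I24Rik in RelA(Ser276Ala) cells (0.95). 1700019B21Rik (Tslrn1; chrX:62510539-62527011, - strand) stood at 9.81 to 13.3 FPKM in RelA(TA2), 5.11 to 6.72 in RelA(wt) and 3.95 to 8.28 in RelA(Ser276Ala) cells. RelA(TA2) overlapped neither line and was higher by 0.90 than RelA(wt) (SE 0.11, adjusted p = 6.85e-04) and by 1.08 than RelA(Ser276Ala) (SE 0.11, adjusted p = 2.04e-04, limma). Gm2115 (chr7:84528954-84583626, + strand), now listed as protein-coding, stood at 10.1 to 11.2 FPKM in RelA(Ser276Ala), 5.67 to 6.68 in RelA(wt) and 5.17 to 8.52 in RelA(TA2) cells, and RelA(Ser276Ala) was higher than RelA(wt) by 0.79 (SE 0.09, adjusted p = 2.84e-04). 2010204K13Rik was highest in RelA(Ser276Ala) cells at 16.4 to 23.4 FPKM, beside 11.997 to 13.9 in RelA(wt) (0.53 higher, adjusted p = 0.00274) and 9.28 to 13.1 in RelA(TA2). 2810025M15Rik, which overlaps Rasal2, exceeded its RelA(wt) level by 0.40 in RelA(Ser276Ala) cells (adjusted p = 0.00194), with 23.4 to 32.2 against 18.6 to 22.9 FPKM. BC029722 was lower there by 0.39 (adjusted p = 5.04e-04), with 28.0 to 31.7 against 37.3 to 41.2 FPKM.

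7530420F21Rik (Ptgs2os), which starts 289 bases from Ptgs2, the inducible cyclooxygenase gene, on the opposite strand, was higher in RelA(TA2) cells. RelA(wt) libraries were listed at 0 at 0 h and 1 h and stood at 2.18 and 2.47 FPKM at 2 h, while RelA(TA2) libraries stood at 1.51 and 3.04, then 2.67 and 7.30, then 4.93 and 2.94 FPKM. RelA(Ser276Ala) libraries stood at 0 and 1.74, then 1.19 and 1.54, then 2.70 and 0. The RelA(TA2) difference over the times was called (adjusted p = 0.0206, limma), though not without its 2 h replicate 1 or its 1 h replicate 2. The Ptgs2 level averaged over the 3 times, which is not its change with TNFα, was also higher in RelA(TA2) cells, by 1.14 (adjusted p = 0.00286). The paper reports diminished ptgs2 expression after TNFα in RelA(TA2) cells, by qPCR relative to each line's unstimulated level. That is another measure, since the 0 h level enters the average given here. The change of 7530420F21Rik with TNFα over the lines did not pass (adjusted p = 0.688 at 1 h and 0.205 at 2 h).

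Some line differences came with doubts about the value itself. BC039771 stood at 205 to 753 FPKM in RelA(TA2) cells and at 0 in 5 of 6 RelA(wt) libraries (adjusted p = 9.76e-04), with all of its FPKM from transcripts under 300 bases and a mean of 0.248 FPM. 1810058I24Rik, now protein-coding, stood at 84.1 to 100 FPKM in RelA(Ser276Ala) and at 26.7 to 41.7 in RelA(TA2) cells, lower in the latter by 1.44 (adjusted p = 0.00249), but on fragments that difference was -0.08 (adjusted p = 0.048). Apoo-ps, which shares exons with Apoo, fell below its RelA(wt) level by 0.27 in RelA(TA2) cells (adjusted p = 0.0182) and exceeded it by 0.24 in RelA(Ser276Ala) cells (adjusted p = 0.0308). 4930562F07Rik was listed at 0 in 3 of 6 RelA(TA2) libraries and stood at 5.06 to 7.95 FPKM in RelA(wt) cells (adjusted p = 0.0431).

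Known non-coding RNAs were then counted by function. The lists tested held 19 small nucleolar RNA hosts, 10 microRNA genes and hosts, 14 nuclear and chromatin RNAs and 6 imprinted RNAs. They also held 2 RNAs not made for oligo-dT capture (Snora78 and the long precursor Rn45s) and 9 NF-κB- or TNF-linked RNAs. None was called with TNFα over the lines by limma on FPKM, beside 3.9% of all genes at 1 h and 8.04% at 2 h. The list of 10 microRNA genes and hosts does not hold Dnm3os, E130102H24Rik or C430049B03Rik, so 0 of 10 does not cover all 20 members that contain microRNAs. It also holds 5830416P10Rik (Mirt1), which entered by the form of its symbol and is not among those 20. At an unadjusted p under 0.05, in the order of the lists, 5, 2, 3, 1, 1 and 1 passed at 1 h and 3, 1, 2, 2, 0 and 1 at 2 h. The share of all genes at that unadjusted threshold is not given, so no list is read as changed from these counts. In the same order their median differences at 1 h were -0.0018, -0.11, -0.08, 0.05, -0.27 and 0.06, and at 2 h 0.14, -0.01, -0.08, -0.33, -0.10 and 0.96, beside -0.03 and -0.05 over all genes and -0.07 and -0.0076 over the members. On fragments 3 hosts of small nucleolar RNAs were higher and 1 lower at 1 h, and 5 were higher and 1 lower at 2 h, of 19 in each case, beside 15.7% and 37.8% of all genes called on fragments. These included Gm11974 (Snhg15), higher by 0.41 at 1 h (adjusted p = 0.00192), and Snhg8, higher by 0.20 at 2 h (adjusted p = 0.0323). Among the nuclear RNAs 3 were lower on fragments at 2 h, and 2 of the NF-κB- or TNF-linked RNAs were higher at each time. 2210403K04Rik, the host of miR-22 (Mir22hg), ranged from 9.63 to 17.2 FPKM at 0 h and from 13.9 to 25.9 at 1 h, a difference of 0.53 (adjusted p = 0.0549), and it was higher on fragments by 0.60 (adjusted p = 0.00072). Mir17hg, chosen after its values were seen, was at 0.03 on FPKM (adjusted p = 0.984) and 0.57 on fragments (adjusted p = 0.00596) at 1 h. Neat1 stood at 91.3 to 181 FPKM at 0 h and at 146 to 413 at 2 h, with no call (adjusted p = 0.626). Its single 0, in 1 RelA(wt) library at 1 h, had a 6816-base transcript over the gene. That 0 enters the spread used by the test, so the missing call does not show an unchanged level.

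Between lines, hosts of small nucleolar RNAs had 1 lower member in RelA(TA2) against RelA(wt), 2410004N09Rik (Epb41l4aos; by 0.44, adjusted p = 0.0112), and 1 higher in RelA(Ser276Ala), Gm11974 (by 0.61, adjusted p = 0.0247, limma). The Gm11974 call was lost when transcripts covering at least 50% of the gene were added (0.42, adjusted p = 0.064). Of the nuclear RNAs, Malat1 and Pvt1 were lower in RelA(TA2) and Xist and 6720401G13Rik in RelA(Ser276Ala), and the other 10 passed in neither. Of the imprinted RNAs, Rian was lower in both and the other 5 passed in neither. Of the NF-κB- or TNF-linked RNAs, 7530420F21Rik was higher and Malat1 lower in RelA(TA2), and none passed in RelA(Ser276Ala). In RelA(TA2) against RelA(wt) 5.44% of all genes were called higher and 5.74% lower, and in RelA(Ser276Ala) 6.85% and 4.96%. No list is read as set apart from these counts.

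Coding genes of the same RNA pathways were read beside them. None of 5 paraspeckle proteins, 8 microRNA processing factors, 8 small nucleolar ribonucleoproteins and 8 nonsense-mediated decay factors was called with TNFα over the lines or within a line by limma on FPKM. In that order 1, 2, 0 and 3 passed an unadjusted p under 0.05 at 1 h over the lines and 1, 0, 2 and 1 at 2 h. The share of all genes at that unadjusted threshold is not given, while 3.9% and 8.04% of all genes were called at 1 h and 2 h. On fragments 7 of the 8 decay factors were lower at 1 h, and 1 microRNA processing factor was higher and 1 lower, beside 15.7% of all genes called. At 2 h on fragments, beside 37.8% of all genes, 3 small nucleolar ribonucleoproteins were higher and none lower, 1 decay factor was higher and 3 lower, 2 microRNA processing factors were higher and 2 lower, and 1 paraspeckle protein was lower. Between lines, Nhp2 was called higher for RelA(TA2) against RelA(wt), beside 5.44% of all genes called higher. Nono, Dgcr8, Gar1, Nhp2 and Nop58 were called higher for RelA(Ser276Ala) against RelA(wt), beside 11.8% of all genes called and 6.85% called higher. Nono was called lower for RelA(TA2) against RelA(Ser276Ala), beside 6.54% of all genes called lower.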

How the data were processed

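RNA-seq was made from 18 libraries of 3 reconstituted fibroblast lines at 3 times. The authors used CASAVA 1.8.2 for base calls, TopHat2 2.0.5 running Bowtie2 2.0.0.7 for the mm10 alignment, and Cufflinks 2.0.2 to assemble transcripts library by library. Cufflinks wrote an FPKM for each transcript, and the authors deposited it in the annotation text (neither counts nor a log scale, and kept here as another unit), already scaled for depth and length. Output of the study's Cuffdiff test was not used.

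A gene's FPKM was the sum over transcripts with at least 50% of their bases in its exons on the same strand or without strand (Python 3.11.15, pandas 2.3.3, numpy 2.4.6, bedtools 2.31.1). Fragments were recovered from each FPKM and its confidence limit. Of those below 500, 88.9% to 90.2% per library lay within 0.02 of a whole number. Testing, for genes reaching 1 FPKM in 2 or more libraries, used limma 3.58.1 (R 4.3.3) on log2(FPKM + 0.5) with 9 condition means, 9 residual degrees of freedom, a variance trend and two-sided Benjamini-Hochberg adjusted p, called under 0.05. This amount understates changes of low genes. The study reports independent replicates; p-values measure the spread between 2 libraries.

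The members, lists and tests were chosen with earlier results of these data known. Genes were named by rule: the 10 highest means, up to 8 per direction with the largest change of 1 sign in each line or time, up to 4 per direction within a line, up to 6 differing in response and the 5 highest of each list. Genes with shared seeds and Mir17hg were added. Alternatives were amounts of 0.1 and 1, other filters, scalings, isoform, strand, transcript and variance choices, recovered fragments, replicate blocks and leaving out each library. Giving each transcript to 1 gene was added after the data were seen. The test was tried on simulated data. Promoter and microRNA sequences come from RefSeq GRCm38.p6, which matched 421 of 426 members.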

Additional observations from a re-analysis of the deposited data

Results flagged for a closer look

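Atp6v0c-ps2 was marked because its TNFα response differed between lines (adjusted p = 5.85e-12, limma). It was listed at 0 in both RelA(wt) libraries at 1 h and stood at 281 to 347 FPKM in the other 16. The 0 values had joined transcripts of 2785 and 2751 bases over the gene. With such transcripts counted, its FPKM fell by 1.21 at 1 h in RelA(wt) cells (adjusted p = 1.54e-05, limma). Those transcripts stood at 139 and 132 FPKM with 11179 and 9724 fragments, and their FPKM is scaled by the whole joined length. Whether the gene's own RNA fell was not tested.

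A930024E05Rik was marked for the same test (adjusted p = 0.0121, limma). It was above 0 only in RelA(TA2) and RelA(Ser276Ala) cells at 0 h, at 2.05 to 7.64 FPKM, with a mean of 0.209 FPM. It passed the filter on low values only through these 4 libraries, so this p is no independent evidence of a difference.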

How the results depend on the processing

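Over 84 named gene and comparison pairs, 1110 values from the alternatives kept direction and side of the threshold, 90 lost the call and 5 changed sign. Leaving out libraries kept 1225 and lost 287. The sign changes were 2900056M20Rik at 2 h on fragments (-0.97), H19 in RelA(wt) on fragments (0.0015 at 1 h, 0.23 at 2 h), Gm11974 in RelA(TA2) against RelA(Ser276Ala) with the highest isoform (0.0396) and 1500015A07Rik in RelA(TA2) at 1 h with covering transcripts added (0.0391). The cause was not tested except where covering transcripts were counted.

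On recovered fragments the counts of called members were 39 at 1 h and 63 at 2 h over the lines, 17 and 22 in RelA(wt), 29 and 41 in RelA(TA2), 8 and 16 in RelA(Ser276Ala), 61, 75 and 74 between lines (RelA(TA2) and RelA(Ser276Ala) against RelA(wt), then RelA(TA2) against RelA(Ser276Ala)) and 7 for the difference in response. With covering transcripts added they were 16 at 1 h over the lines, 8 in RelA(Ser276Ala) at 1 h, 38 and 33 in RelA(Ser276Ala) against RelA(wt) and RelA(TA2) against RelA(Ser276Ala), and 4 for the difference in response. With transcripts of at least 300 bases only they were 14 at 1 h and 3 in RelA(Ser276Ala) at 2 h. With the highest isoform they were 9 at 2 h over the lines and 3 at each time in RelA(Ser276Ala). With at least 5 FPKM they were 1 in RelA(wt) at 2 h, 1 at each time in RelA(Ser276Ala) and 1 for the difference in response. Without genes that overlap exons of another they were 3 at each time in RelA(Ser276Ala), 10 in RelA(TA2) against RelA(Ser276Ala) and 1 for the difference in response. The difference in response gave 5 with 0.1 FPKM added, 7 without the variance trend and 1 with each transcript given to 1 gene. On fragments 15.7% and 37.8% of all genes were called over the lines, and 40.4%, 43.3% and 43.0% between lines. For the other counts here and below the share over all genes is not given. They describe how the calls depend on processing and not a response of the members.

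Without 1 library the counts ranged from 9 to 15 (1 h) and 9 to 17 (2 h) over the lines, 5 to 8 and 3 to 6 in RelA(wt), 5 to 8 and 6 to 11 in RelA(TA2), 3 to 9 and 2 to 6 in RelA(Ser276Ala), 16 to 22, 14 to 26 and 13 to 21 between lines, and 2 to 6 for the difference in response. Where 1 library was left out, the lone library of its condition was assumed to vary like the others.

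Replicate numbers did not pair the samples: over 36 pairs of conditions the correlation of same-numbered deviations ran from -0.0598 to 0.0624. With the replicate block 9 and 11 members were called over the lines, 6 and 3 in RelA(wt), 5 and 6 in RelA(TA2), 5 and 4 in RelA(Ser276Ala), 17, 19 and 19 between lines and 2 for the difference in response.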
